A study of Mus musculus with 12 samples.

Results

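The response to interferon alpha (IFNα) was examined in B16F10 cells that carry the C435A form of IRF7, across all genes. B16F10 is a transplantable mouse melanoma cell line, and C435A replaces a cysteine of the IRF7 protein with alanine. The members are 6 of the 12 RNA-seq libraries of the series, chosen by their labels: 3 mutant libraries with IFNα stimulation and 3 mutant control libraries. The other 6 libraries are the same pair of conditions in wild-type B16F10 cells, and they were used to estimate the spread and to compare the responses of the lines. The series title connects S-nitrosylation of IRF7, the attachment of nitric oxide to its cysteines, with NOS1, the neuronal nitric oxide synthase. The dose and duration of IFNα, how the C435A form was introduced, whether the line is a single clone and whether the 3 libraries of a group came from separate cultures are points that the sources used here do not give. The p-values therefore measure only the spread between these libraries, which may be technical.

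IFNα and IFNβ are type I interferons, secreted proteins that bind a receptor of the chains IFNAR1 and IFNAR2. The receptor activates the kinases JAK1 and TYK2, which phosphorylate STAT proteins, and STAT2 with its partner STAT and IRF9 binds a DNA element called the interferon-stimulated response element (ISRE). The targets are antiviral effectors, antigen presentation genes, chemokines and inhibitors such as SOCS1 that end the signal. IRF7 is an interferon regulatory factor that is itself induced by interferon and that drives interferon genes once it is phosphorylated, which makes the pathway a positive loop.

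The 3 IFNα libraries held 73549681, 73868279 and 60511573 counts, against 62349499, 63898023 and 63351855 counts in the 3 control libraries. The 10 melanoma markers, such as the pigment genes Mlana, Pmel and Dct, summed to 10395, 10118 and 10383 CPM (counts scaled by TMM to the depth of each library) with IFNα, against 10851, 10120 and 9902 CPM in the controls. Lung RNA was present in 4 of the 6 libraries: 16 lung epithelium markers summed to 3.06, 2.89 and 75.0 CPM with IFNα, against 57.2, 70.2 and 60.9 CPM in the controls. In IFNα libraries 1 and 2, 11 and 12 of the 16 were at 0 counts, against 1, 0 and 0 in the controls and 0 in IFNα library 3. Sftpc, the surfactant protein of alveolar cells, was listed at 0, 0 and 9.58 FPKM with IFNα, against 9.89, 21.2 and 11.4 FPKM in the controls. With 1 IFNα library on the side of the controls, the lung sums of the groups overlapped (difference −35.8 CPM, two-sided exact permutation p = 0.4, where 3 against 3 libraries cannot give less than 0.1).

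Markers of other tissues followed the lung transcripts in part. Fibroblast and smooth muscle markers summed to 61.2, 62.7 and 119 CPM with IFNα, against 105, 110.4 and 71.8 CPM in the controls. Leukocyte markers summed to 109, 78.6 and 114 CPM with IFNα, against 143, 131 and 146 CPM in the controls, and the groups did not overlap. Lyz2 had the highest level of that list, at 32.7, 22.5 and 35.4 FPKM with IFNα and 56.8, 50.9 and 56.3 FPKM in the controls. Ptprc and Itgam also lay below all controls in CPM, whereas Cd68, Csf1r (0.13) and Adgre1 (0.02) overlapped between the groups. Erythroid markers summed to 0.226, 0 and 9.91 CPM with IFNα, against 30.8, 18.2 and 10.03 CPM in the controls. None of the markers of these lists passed the test of single genes. In a bulk sample, fewer cells of a type and less RNA per cell cannot be told apart.

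IFNα library 3 also stood apart from its replicates over the whole transcriptome. The SD of the log2 ratio over 6318 abundant genes was 0.438 and 0.435 between it and IFNα libraries 1 and 2, against 0.278 between those 2 and 0.232 to 0.283 among the controls. On the first 2 principal components it lay at 37.5 and −39.1, whereas IFNα libraries 1 and 2 lay at −0.142 and −1.28, and at −5.33 and −2.13. Where leaving it out moved the value of a gene by over 1.5 times, the value without it follows, except for genes with a difference near 0. Medians of gene lists moved as well, and not all are given below. Without IFNα library 3 they went from 0.12 to 0.05 for interferon regulatory factors and from 0.07 to 0.01 for chemokines and cytokines. They went from −0.11 to −0.21 for MHC class II, from −0.19 to −0.47 for collagen chains and from 0.06 to 0.11 for DNA replication.

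**Figure D1:**
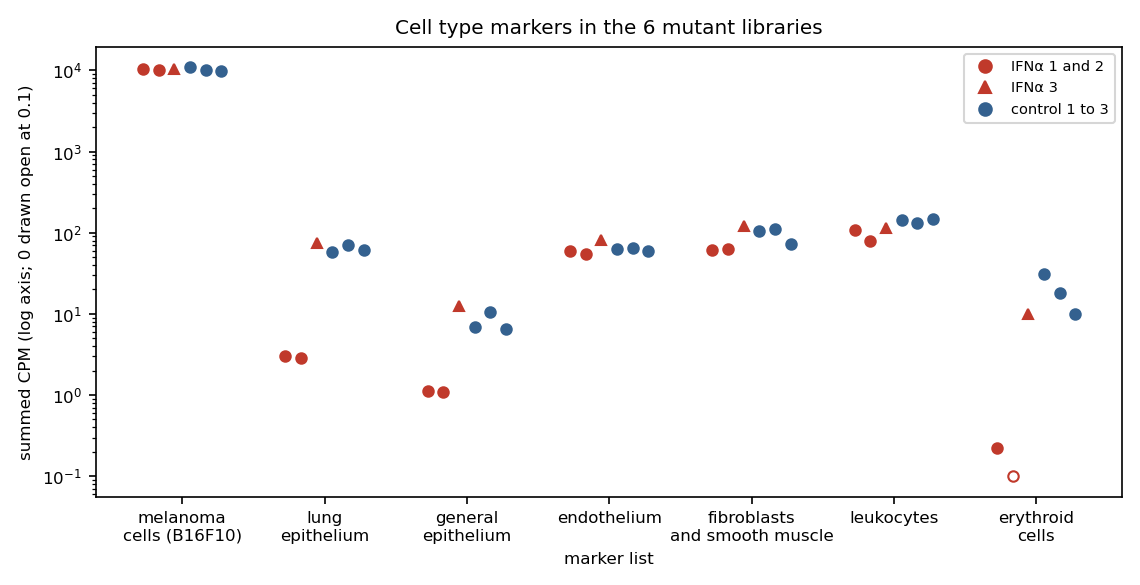
Summed CPM of 7 marker lists (log axis) in the 6 mutant libraries, with IFNα libraries in red (the triangle is IFNα library 3) and control libraries in blue. The melanoma sums lay between 9902 and 10851 CPM in all 6 libraries, whereas the lung sums were 3.06 and 2.89 CPM in IFNα libraries 1 and 2 and at least 57.2 CPM in the other 4.

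The promoters of 6 genes are shown to place the motifs of the pathway beside the values that follow: 3 genes among those with the smallest p (Irf1, Ifna4, Ifnb1), the chemokine gene Cxcl10, the NF-κB inhibitor gene Nfkbie, and Isg15, an abundant interferon target that did not pass. Each line gives the 250 bases before the transcription start from RefSeq (GRCm38.p6), 5′ to 3′ on the strand of the gene. Capitals mark matches, on either strand, to 3 motifs: GAAA, any 2 bases (NN) and GAAA, which is the core of an ISRE; GGG, any 3 bases (NNN) and TTCC, a form of the NF-κB site; and TTC, any 3 bases (NNN) and GAA, the gamma-activated site bound by STAT dimers.
Irf1 (chr11:53769764-53770013, plus strand): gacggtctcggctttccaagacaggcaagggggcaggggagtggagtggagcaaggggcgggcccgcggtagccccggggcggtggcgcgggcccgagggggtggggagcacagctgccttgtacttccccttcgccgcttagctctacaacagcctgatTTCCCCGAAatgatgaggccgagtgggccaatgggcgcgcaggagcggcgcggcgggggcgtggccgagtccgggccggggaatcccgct
Ifna4 (chr4:88841566-88841815, plus strand): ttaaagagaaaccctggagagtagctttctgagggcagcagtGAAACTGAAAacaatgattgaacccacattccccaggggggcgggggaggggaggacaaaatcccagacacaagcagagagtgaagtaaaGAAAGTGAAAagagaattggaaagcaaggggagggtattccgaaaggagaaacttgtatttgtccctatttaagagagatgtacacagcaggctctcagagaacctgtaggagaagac
Ifnb1 (chr4:88522795-88523044, minus strand): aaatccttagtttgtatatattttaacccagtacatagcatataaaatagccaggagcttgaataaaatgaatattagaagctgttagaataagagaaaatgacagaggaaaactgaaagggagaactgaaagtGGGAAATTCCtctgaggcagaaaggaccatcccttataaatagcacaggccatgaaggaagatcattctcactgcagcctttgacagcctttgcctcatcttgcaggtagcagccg
Cxcl10 (chr5:92348890-92349139, minus strand): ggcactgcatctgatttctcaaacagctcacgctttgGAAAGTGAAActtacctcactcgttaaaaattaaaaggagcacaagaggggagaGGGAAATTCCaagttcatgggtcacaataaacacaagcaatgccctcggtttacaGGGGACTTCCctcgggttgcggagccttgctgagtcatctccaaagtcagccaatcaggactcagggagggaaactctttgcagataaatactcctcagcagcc
Nfkbie (chr17:45555450-45555699, plus strand): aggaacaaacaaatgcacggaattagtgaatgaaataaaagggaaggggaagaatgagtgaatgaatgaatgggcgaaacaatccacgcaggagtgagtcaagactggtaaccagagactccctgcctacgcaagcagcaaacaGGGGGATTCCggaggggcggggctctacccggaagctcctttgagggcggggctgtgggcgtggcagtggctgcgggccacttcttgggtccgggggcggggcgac
Isg15 (chr4:156200819-156201068, minus strand): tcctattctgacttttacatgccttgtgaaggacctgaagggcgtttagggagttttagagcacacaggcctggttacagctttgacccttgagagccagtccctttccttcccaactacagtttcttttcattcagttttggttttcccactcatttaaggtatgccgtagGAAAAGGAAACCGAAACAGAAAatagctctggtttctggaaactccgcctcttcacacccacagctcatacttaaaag

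In these windows Irf1 held 1 gamma-activated site at −90, and a second annotated start of Irf1 held no match. Ifna4 held 2 ISRE cores at −208 and −118, and Ifnb1 held 1 NF-κB form at −116. Cxcl10 held 1 ISRE core at −213 and 2 NF-κB forms at −159 and −104, and Nfkbie held 1 NF-κB form at −106. Isg15 held 3 ISRE cores that overlap each other, at −78, −72 and −66. Of all 32851 RefSeq promoters of this length, 2.98% held the ISRE core, 4.65% the NF-κB form and 7.02% the gamma-activated site. A match describes these letters only and is not evidence of binding.

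Across the transcriptome, 1 of 17590 genes passed at an adjusted p under 0.05 in the comparison of mutant IFNα with mutant control (0.00569% of all genes tested; edgeR, quasi-likelihood test, Benjamini-Hochberg adjusted). That gene was H2-K2 (ENSMUSG00000067203, chromosome 17, 34193608 to 34197811, minus strand, as deposited), an MHC class I heavy chain gene. H2-K2 lay at 21.2, 20.6 and 24.7 FPKM with IFNα and 9.52, 8.87 and 11.6 FPKM in the controls. All 3 IFNα libraries were above all 3 controls, and H2-K2 rose by 1.13 ± 0.14 on the log2 scale (± SE, 95% interval 0.82 to 1.44, adjusted p = 0.0329). When each of the 12 libraries was left out in turn, the call was lost 7 times: without mutant control 1 or 2, any of the 3 mutant IFNα libraries, and wild-type IFNα 1 or 2. Without IFNα library 3 the value was 1.03 (adjusted p = 0.062), and over the 12 fits it lay between 1.03 and 1.25 with an adjusted p of 0.0283 to 0.388. In the lung-bearing mutant libraries only, IFNα library 3 against the 3 controls, it was 1.299, a value that rests on 1 IFNα library. H2-K2 is a close copy of other class I genes, so its level depends on how shared reads were counted.

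At an unadjusted p under 0.05 there were 1003 higher genes (5.7% of those tested) and 812 lower genes (4.62%). The median log2 fold change of all genes tested was −0.01. DESeq2 called 175 of 18379 genes, 115 higher (0.626%) and 60 lower (0.326%), and limma on log2(FPKM + 1) called 3, which were H2-K2, Ifna4 and Ifnb1. Of the 175, 103 were at 5 FPKM or more in the higher group, 80 higher and 23 lower. In 28 of the 175 the DESeq2 log2 fold change was larger than 5 in size. The count therefore depends on the tool, and below "higher" and "lower" describe values, with the edgeR adjusted p given where a gene is weighed. The values are log2 fold changes ± SE between groups of 3 libraries each, and levels are FPKM, which are scaled for transcript length. The SE was derived from the quasi-likelihood statistic of the fit over all 12 libraries. It is therefore not the spread of the 6 libraries compared.

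**Figure D2:**
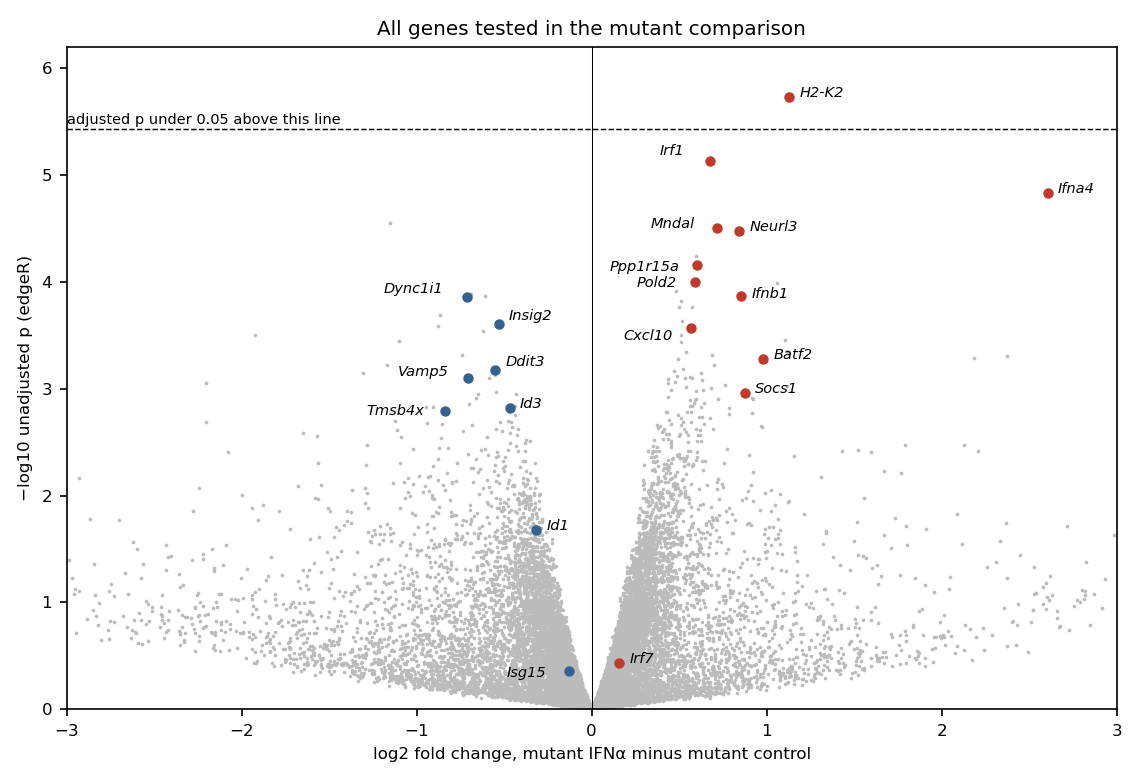
Log2 fold change of mutant IFNα minus mutant control (horizontal axis) against −log10 of the unadjusted edgeR p (vertical axis) for the genes tested, with 212 genes beyond 3 on the log2 scale not drawn. H2-K2 is the point above the dashed line, Irf1 and Ifna4 lie next below it, and Isg15 and Irf7 lie near 0.

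The interferon genes themselves were higher in IFNα-treated mutant cells. Ifna4 (chromosome 4, 88760098 to 88760658, plus strand), an IFNα subtype gene whose own transcription IRF7 is known to drive, lay at 4.09, 3.91 and 4.83 FPKM with IFNα and 0.368, 0.837 and 0.83 FPKM in the controls. All 3 IFNα libraries lay far above the 3 controls. The log2 fold change was 2.61 ± 0.40 (adjusted p = 0.0864 in edgeR, 2.08e-06 in DESeq2). Ifna4 passed with library totals as scaling, with robust estimation and with a term for lung transcripts (3.13, adjusted p = 0.0442). Without IFNα library 3 its adjusted p was 0.145.

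Ifnb1 (chromosome 4, 88440262 to 88441011, minus strand), the single IFNβ gene, lay at 36.7, 36.8 and 34 FPKM with IFNα and 20.8, 17.9 and 19.9 FPKM in the controls, again with no overlap. Its log2 fold change was 0.85 ± 0.16 (adjusted p = 0.162 in edgeR, 0.000805 in DESeq2), and 0.88 without IFNα library 3. The third interferon gene tested, Ifnz, an interferon zeta gene, was near the limit of detection at 0.331, 0.168 and 0.351 FPKM with IFNα and 0.0985, 0.153 and 0.134 FPKM in the controls. Ifna2 and Ifna5 were listed at 0 in all 6 libraries and were not tested. The IFNα subtype genes are near-identical copies, so reads of one may have been counted in another.

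Receptor and kinase genes gave small positive values. Of 17 genes for interferon receptors, JAKs and STATs, 0 passed, 4 were higher and 0 lower at an unadjusted p under 0.05 (23.5% and 0%, against 5.7% and 4.62% of all genes), and their median was 0.15. Ifnar1, the chain that binds TYK2, lay at 2.85, 3.29 and 3.06 FPKM with IFNα and 2.77, 2.82 and 2.78 FPKM in the controls, and Ifnar2, the high-affinity chain, at 6.29, 6.36 and 7.05 FPKM with IFNα and 6.21, 6.2 and 6.11 FPKM in the controls. Their log2 fold changes were 0.11 ± 0.13 and 0.07 ± 0.11 (adjusted p = 0.805 and 0.874). Stat2, the STAT that carries the ISRE complex's activation domain, lay at 5.13, 5.38 and 5.1 FPKM with IFNα and 3.52, 4.03 and 4.7 FPKM in the controls (0.33 ± 0.13, adjusted p = 0.429). The smallest p of the list belonged to Stat6, the STAT of the interleukin 4 pathway (0.38 ± 0.13, adjusted p = 0.378), followed by Ifngr2, a chain of the IFNγ receptor (0.32 ± 0.11, adjusted p = 0.392).

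Among the interferon regulatory factors, Irf1 (chromosome 11, 53660841 to 53668149, plus strand) had the second smallest p of all genes. IRF1 is a transcription factor that activates class I and antiviral genes after interferon. Irf1 lay at 16.6, 17.5 and 16.8 FPKM with IFNα and 11.2, 9.7 and 10.5 FPKM in the controls. The IFNα libraries were within 1 FPKM of each other and all above the controls. The log2 fold change of 0.68 ± 0.10 had an adjusted p of 0.0655 in edgeR, above the threshold, and of 9.09e-09 in DESeq2, and without IFNα library 3 it was 0.68 (adjusted p = 0.072). It also passed with robust estimation and over genes with a mean of at least 5 FPKM (adjusted p = 0.0348 and 0.0379).

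Irf7 itself (chromosome 7, 140842619 to 140846394, minus strand) lay at 4.63, 4.69 and 7.23 FPKM with IFNα and 4.99, 4.44 and 5.19 FPKM in the controls. IFNα library 3 was the highest of the 6 and the other 2 IFNα libraries lay among the controls, so the difference of 0.16 ± 0.17 rests on that library (adjusted p = 0.791, and −0.10 without it). The C435A codon itself cannot be seen in counts per gene. Irf9, which joins STAT2 in the ISRE complex, lay at 13.8, 15.6 and 13.6 FPKM with IFNα and 15.3, 13.3 and 13.2 FPKM in the controls (0.02 ± 0.10), with overlapping groups. Irf5, a factor of inflammatory cytokine genes, was at 0.46 ± 0.17 (adjusted p = 0.415). Of the 12 genes on the list 0 passed and 3 were higher at an unadjusted p under 0.05 (25%), with a median of 0.12. The list also counts Irf2bp1, Irf2bp2 and Irf2bpl, which are genes of IRF2-binding proteins and not of IRFs. Irf2bp1 (0.35 ± 0.12) was among the 3, with Irf1 and Irf5.

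**Figure D3:**
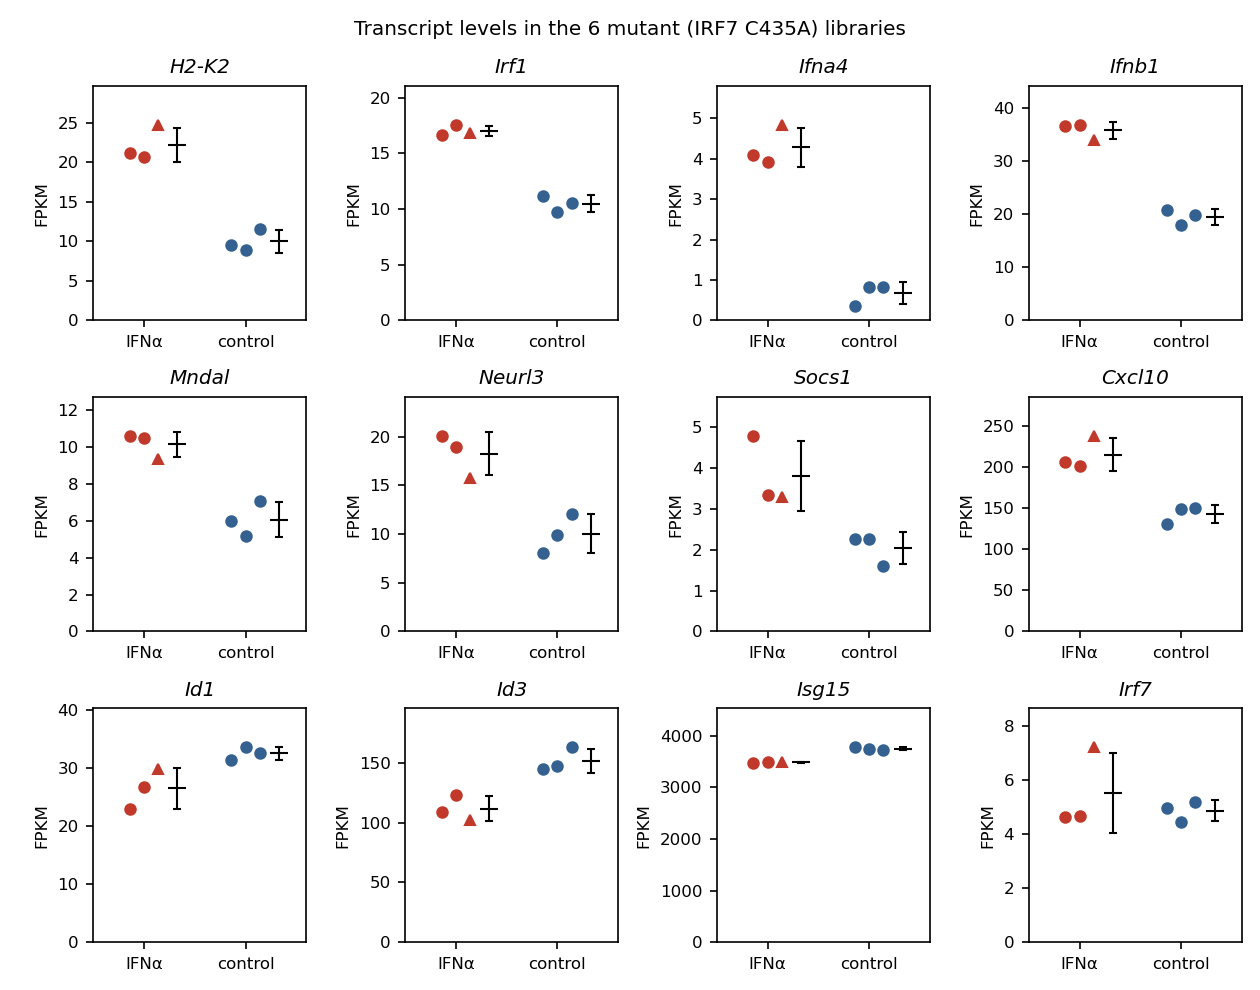
FPKM of 12 genes in the 3 mutant IFNα libraries (red, the triangle is IFNα library 3) and the 3 mutant control libraries (blue), with mean and SD beside them in black. The groups do not overlap for H2-K2, Irf1, Ifna4, Ifnb1, Mndal, Neurl3, Socs1 and Cxcl10 (IFNα higher) or for Id1, Id3 and Isg15 (IFNα lower), and overlap for Irf7. H2-K2, Irf1, Ifnb1, Mndal, Neurl3 and Id3 are among the 12 higher and 12 lower genes, whose rule required no overlap.

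Feedback inhibitors gave unlike values. Socs1, which blocks JAK kinases, lay at 4.78, 3.33 and 3.28 FPKM with IFNα and 2.27, 2.26 and 1.6 FPKM in the controls. IFNα library 1 was the highest, and all 3 lay above the controls (0.87 ± 0.21, adjusted p = 0.274 in edgeR and 0.0209 in DESeq2). Socs3, which mainly restrains interleukin 6 signalling, lay at 1.6, 1.35 and 1.21 FPKM with IFNα and 1.4, 1.41 and 1.46 FPKM in the controls (−0.06 ± 0.17). Usp18, which removes ISG15 from proteins and also silences the receptor, lay at 254, 300.2 and 177 FPKM with IFNα and 255, 228 and 235 FPKM in the controls, with IFNα library 3 below all controls and IFNα library 2 above them (adjusted p = 1). Of 16 feedback genes 3 were higher and 0 lower at an unadjusted p under 0.05 (18.8%), at a median of 0.12. The other 2 were Trim30a (0.30 ± 0.13), which restrains Toll-like receptor signalling, and Cish (0.60 ± 0.26), a cytokine-induced SOCS family member.

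Many antiviral effectors were already abundant in the control cells, and 38 of 81 stood at 10 FPKM or more there. Isg15, a ubiquitin-like protein that is attached to other proteins, lay at 3469, 3499.8 and 3487 FPKM with IFNα and 3782, 3738 and 3728 FPKM in the controls. Its IFNα libraries were all slightly below its controls, a difference of −0.13 ± 0.16 (95% interval −0.47 to 0.22, adjusted p = 0.823). Its 3 ISRE cores are those printed above. Oas1a, which makes the messenger that activates RNase L, lay at 546, 597 and 431 FPKM with IFNα and 511, 491 and 509 FPKM in the controls (0.03 ± 0.13), and Ifit1, which binds viral RNA ends, lay at 115, 107 and 108 FPKM with IFNα and 95.5, 95.9 and 108 FPKM in the controls (0.12 ± 0.16). Ifit3, a partner of IFIT1, lay at 757, 738 and 498 FPKM with IFNα and 771, 507 and 531 FPKM in the controls (0.12 ± 0.19). The Oas1 and Ifit families hold near-identical copies, so these values are uncertain.

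Rsad2, which makes a chain-terminating nucleotide, was at 60.4, 58.7 and 40.3 FPKM with IFNα and 51.4, 46.8 and 40.8 FPKM in the controls (0.17 ± 0.16). Cmpk2, a mitochondrial nucleotide kinase that lies next to Rsad2, was at 21.9, 23.8 and 21.7 FPKM with IFNα and 13.6, 15.3 and 14.1 FPKM in the controls. Without IFNα library 3, Rsad2 was at 0.33, Ifit3 at 0.28 and Oas1a at 0.15. In Cmpk2 the groups did not overlap (0.62 ± 0.16, adjusted p = 0.282 in edgeR and 0.0253 in DESeq2), whereas in Rsad2 they did. Mx1, a GTPase against RNA viruses, was at 30.1, 33.3 and 24.4 FPKM with IFNα and 25.7, 21.1 and 20.1 FPKM in the controls (0.37 ± 0.14, adjusted p = 0.427), and 1 control library lay above the lowest IFNα library.

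Over the 81 antiviral genes 0 passed in edgeR and 5 were called in DESeq2, all higher (against 0.626% of all genes). At an unadjusted p under 0.05, 16 were higher and 1 lower (19.8% and 1.23%, against 5.7% and 4.62% of all genes). Their median was 0.12, at 0.07 to 0.25 over the alternatives. The smallest p belonged to Tor3a, an interferon-induced torsin ATPase of the endoplasmic reticulum, at 57.4, 58.9 and 55.7 FPKM with IFNα and 40.2, 38.3 and 41.1 FPKM in the controls (0.50 ± 0.10, adjusted p = 0.167). Oas1b (0.39 ± 0.10) and Samd9l (0.60 ± 0.16), a growth-restraining antiviral factor, followed Cmpk2 in that order, each with no overlap between groups.

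Interferon-inducible GTPases attack the membranes of intracellular pathogens. Of 17 tested, 15 had a positive value, against 49.2% of all genes tested. Their median was 0.20, and 3 were higher at an unadjusted p under 0.05 (17.6%). These 3 were Tgtp2 at 0.38 ± 0.15, Irgm2 at 0.26 ± 0.11 and Tgtp1 at 0.31 ± 0.14, with adjusted p = 0.427, 0.432 and 0.468. Tgtp1 and Tgtp2 are adjacent copies, so their counts may be split between them. Without IFNα library 3 the median of the list was 0.24.

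The AIM2-like genes, a cluster on chromosome 1 for nuclear and cytosolic DNA sensors, had the highest median of the lists with more than 3 genes tested. Mndal (chromosome 1, 173676692 to 173707753, minus strand) lay at 10.6, 10.5 and 9.36 FPKM with IFNα and 5.98, 5.17 and 7.05 FPKM in the controls. Every IFNα library was above every control (0.72 ± 0.12, adjusted p = 0.0973 in edgeR and 2.43e-05 in DESeq2). Ifi204, a sensor with a role in STING-dependent interferon induction, lay at 32.9, 32.5 and 29.7 FPKM with IFNα and 23.3, 15.4 and 18.9 FPKM in the controls (0.70 ± 0.16, adjusted p = 0.252). Ifi211 lay at 27.1, 30.9 and 23.8 FPKM with IFNα and 19, 15.2 and 19.1 FPKM in the controls (0.59 ± 0.14) and Ifi203 at 6.9, 5.88 and 5.68 FPKM with IFNα and 3.4, 3.75 and 4.88 FPKM in the controls (0.59 ± 0.15), likewise without overlap.

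Of the 11 AIM2-like genes tested 6 were higher at an unadjusted p under 0.05 and their groups did not overlap in CPM (54.5%, against 7.97% of all genes with no overlap upward). DESeq2 called 4, all higher (against 0.626% of all genes). The median was 0.53, and 0.43 to 0.77 over the alternatives, with 0.61 without IFNα library 3. Of 10 AIM2-like genes with a promoter entry 8 held the ISRE core, against 3.46% of all genes with an entry. The genes are close copies that arose by duplication, so both their counts and their promoters are not independent.

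Other nucleic acid sensors included Tlr3, the endosomal receptor for double-stranded RNA, at 2.01, 2.07 and 2.53 FPKM with IFNα and 1.48, 1.59 and 1.36 FPKM in the controls (0.55 ± 0.15, adjusted p = 0.305). Myd88, the adaptor of most Toll-like receptors, was at 0.36 ± 0.11 (adjusted p = 0.347). Of 35 sensing genes 3 were higher and 0 lower at an unadjusted p under 0.05 (8.57%), a share near the 5.7% of all genes. In CPM, 8 of the 35 had every IFNα library above every control (22.9%, against 7.97% of all genes). The reverse held for 0 of them, against 9.74% of all genes. Their median was 0.15.

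In antigen presentation H2-K2 was the exception among class I heavy chains. H2-K1, its classical neighbour, lay at 114, 103 and 86.8 FPKM with IFNα and 103, 92.1 and 96.8 FPKM in the controls (0.04 ± 0.11, adjusted p = 0.938). H2-D1, the other classical heavy chain, lay at 323, 279.9 and 224 FPKM with IFNα and 263, 256 and 266 FPKM in the controls (0.05 ± 0.12), and B2m, the shared light chain, at 1406, 1165 and 1806 FPKM with IFNα and 1300.2, 1410.0 and 1471 FPKM in the controls (0.05 ± 0.16). In these 3 genes the groups overlapped. H2-Q4, a non-classical gene, lay at 19.7, 18.9 and 16.9 FPKM with IFNα and 14.9, 12.8 and 14.3 FPKM in the controls, with all IFNα libraries higher (0.38 ± 0.10, adjusted p = 0.305 in edgeR and 0.0301 in DESeq2). Of 17 genes on this list, which counts B2m with the heavy chains, 1 passed and 2 were higher at an unadjusted p under 0.05 (11.8%). Their median was 0.04.

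The genes that load peptides on class I differed from one another. Tapbpl, which encodes the peptide editor TAPBPR, lay at 4.68, 4.76 and 5.84 FPKM with IFNα and 2.79, 2.96 and 3.36 FPKM in the controls (0.72 ± 0.18, adjusted p = 0.282). Tap1, a chain of the peptide transporter, was at 0.28 ± 0.11 (adjusted p = 0.434), and Nlrc5, the transactivator of class I genes, at 0.36 ± 0.19 (adjusted p = 0.536). Psmb9, an immunoproteasome subunit, was at 6.77, 5.99 and 3.57 FPKM with IFNα and 5.82, 4.93 and 4.57 FPKM in the controls (0.07 ± 0.20, and 0.29 without IFNα library 3, the lowest of the 6). Psmb8, another such subunit, was near 0 at 0.299, 0.608 and 0.421 FPKM with IFNα and 0.721, 0.551 and 0.882 FPKM in the controls (−0.72 ± 0.39, adjusted p = 0.541). Psme1, of the proteasome activator, was lower in all IFNα libraries at 86.6, 93.9 and 67.4 FPKM with IFNα and 106, 101 and 98.6 FPKM in the controls (−0.33 ± 0.11, adjusted p = 0.387, and −0.21 without IFNα library 3). Over 18 genes 2 were higher and 1 lower at an unadjusted p under 0.05 (11.1% and 5.56%), with a median of 0.08.

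MHC class II molecules are typical of professional antigen-presenting cells, and their classical chain genes were under 1 FPKM in all 6 libraries. H2-Eb1 lay at 0.324, 0.234 and 0.185 FPKM with IFNα and 0.742, 0.733 and 0.834 FPKM in the controls, and H2-Ab1 at 0.162, 0.0978 and 0.283 FPKM with IFNα and 0.94, 0.478 and 0.654 FPKM in the controls. They were the 2 of 12 class II genes lower at an unadjusted p under 0.05 (16.7%, against 4.62% of all genes; −1.65 ± 0.45 and −1.91 ± 0.70, adjusted p = 0.305 and 0.412). Summed leukocyte and lung markers were lower in the same direction in IFNα libraries 1 and 2, and the part of other cells in these values was not tested. The list median was −0.11, and 0.16 in the comparison of IFNα library 3 alone with the controls. In that comparison H2-Eb1 was still lower at −2.06 and H2-Ab1 at −1.28, although IFNα library 3 held lung transcripts.

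Among the chemokines tested, Cxcl10 and the other ligands of CXCR3, which attract T cells, were described as a group after their values were seen, and none of the 3 passed in edgeR. Cxcl10 (chromosome 5, 92494497 to 92496741, minus strand) lay at 207, 202 and 238 FPKM with IFNα and 131, 149 and 150.2 FPKM in the controls. Its groups did not overlap, at 0.57 ± 0.12 (adjusted p = 0.189 in edgeR and 0.000796 in DESeq2). Cxcl9 lay at 4.13, 3.17 and 4.83 FPKM with IFNα and 1.58, 2.35 and 2.2 FPKM in the controls (0.96 ± 0.34, adjusted p = 0.391), and Cxcl11 at 6.03, 5.66 and 6.59 FPKM with IFNα and 3.82, 4.02 and 3.98 FPKM in the controls (0.61 ± 0.23, adjusted p = 0.426). All 3 had every IFNα library above every control in CPM, as had 7 of the 41 genes of the list (17.1%) and 7.97% of all genes. Ccl4, an inflammatory chemokine, was at 0.64 ± 0.22 (0.42 without IFNα library 3), and Ccl5, a chemokine that attracts T cells, at 133, 125 and 81.2 FPKM with IFNα and 113, 115 and 118 FPKM in the controls (−0.06 ± 0.15). In Ccl5 the lowest library of all was IFNα library 3.

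Over the 41 chemokine and cytokine genes tested 5 were higher and 0 lower at an unadjusted p under 0.05 (12.2% and 0%), at a median of 0.07. Summed leukocyte markers were lower with IFNα, as given above, and their part in the chemokine values was not tested. Cd274, which encodes the checkpoint ligand PD-L1, lay at 3.61, 3.21 and 3.09 FPKM with IFNα and 2.94, 3.13 and 2.58 FPKM in the controls (0.17 ± 0.16, adjusted p = 0.739). Of 18 checkpoint and natural killer ligand genes 0 were past an unadjusted p of 0.05 in either direction.

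NF-κB is a family of dimers held in the cytoplasm by IκB proteins, several of which it induces itself. Nfkbie, which encodes IκBε, lay at 11.3, 10.3 and 13.5 FPKM with IFNα and 6.17, 7.2 and 8.09 FPKM in the controls. The groups did not overlap (0.69 ± 0.15, adjusted p = 0.234 in edgeR and 0.00897 in DESeq2). Relb, a subunit of the non-canonical pathway, was at 0.63 ± 0.15 (DESeq2 adjusted p = 0.0195), and Map3k14, the kinase of that pathway, at 0.60 ± 0.18. Rela, the main subunit, lay at 11.4, 11.3 and 20.3 FPKM with IFNα and 9.88, 10.3 and 10.2 FPKM in the controls (0.48 ± 0.19), and the value was 0.13 without IFNα library 3, the highest of the 6. Of 28 genes 6 were higher and 0 lower at an unadjusted p under 0.05 (21.4%). The median against the controls was −0.05, −0.02 and 0.27 in IFNα libraries 1, 2 and 3, and the list median was 0.08 with all libraries and −0.10 without IFNα library 3.

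AP-1 factors and immediate early genes are the first to respond to many stimuli, and their list had medians of 0.07, 0.02 and 0.25 in IFNα libraries 1, 2 and 3. Batf2, an interferon-induced member of the AP-1 family, lay at 4.77, 4.62 and 8.55 FPKM with IFNα and 2.91, 3.04 and 3 FPKM in the controls. IFNα library 3 was the highest, but IFNα libraries 1 and 2 also lay above the controls (0.98 ± 0.22, adjusted p = 0.234, 0.62 without IFNα library 3). Ier2 was at 0.42 ± 0.11, Maff, a small Maf factor, at 0.64 ± 0.17, and Atf3, a stress-induced repressor, at 0.34 ± 0.10. DESeq2 called these 4 genes, at an adjusted p of 0.00763, 0.0301, 0.0449 and 0.0474. They were the 4 of 31 that were higher at an unadjusted p under 0.05 (12.9%), and none was lower. The list median was 0.17 with all libraries and 0.02 without IFNα library 3.

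Id proteins are inhibitors of helix-loop-helix factors and targets of BMP-SMAD signalling. Id3 lay at 109, 123 and 102 FPKM with IFNα and 145, 147 and 163 FPKM in the controls. All IFNα libraries were lower (−0.47 ± 0.12, adjusted p = 0.282 in edgeR and 0.0253 in DESeq2). Id2 lay at 46.2, 45.7 and 60.4 FPKM with IFNα and 72.3, 76.5 and 68.6 FPKM in the controls (−0.53 ± 0.17, adjusted p = 0.363), and Id1 at 23, 26.7 and 30 FPKM with IFNα and 31.5, 33.7 and 32.7 FPKM in the controls (−0.32 ± 0.12, adjusted p = 0.427). None of the 3 overlapped between groups, where 4 of 25 genes of the list (16%) and 9.74% of all genes had every IFNα library below every control in CPM. Of 25 genes on the list 5 were lower and 0 higher at an unadjusted p under 0.05 (20%, against 4.62% of all genes), while the list median was −0.02.

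**Figure D4:**
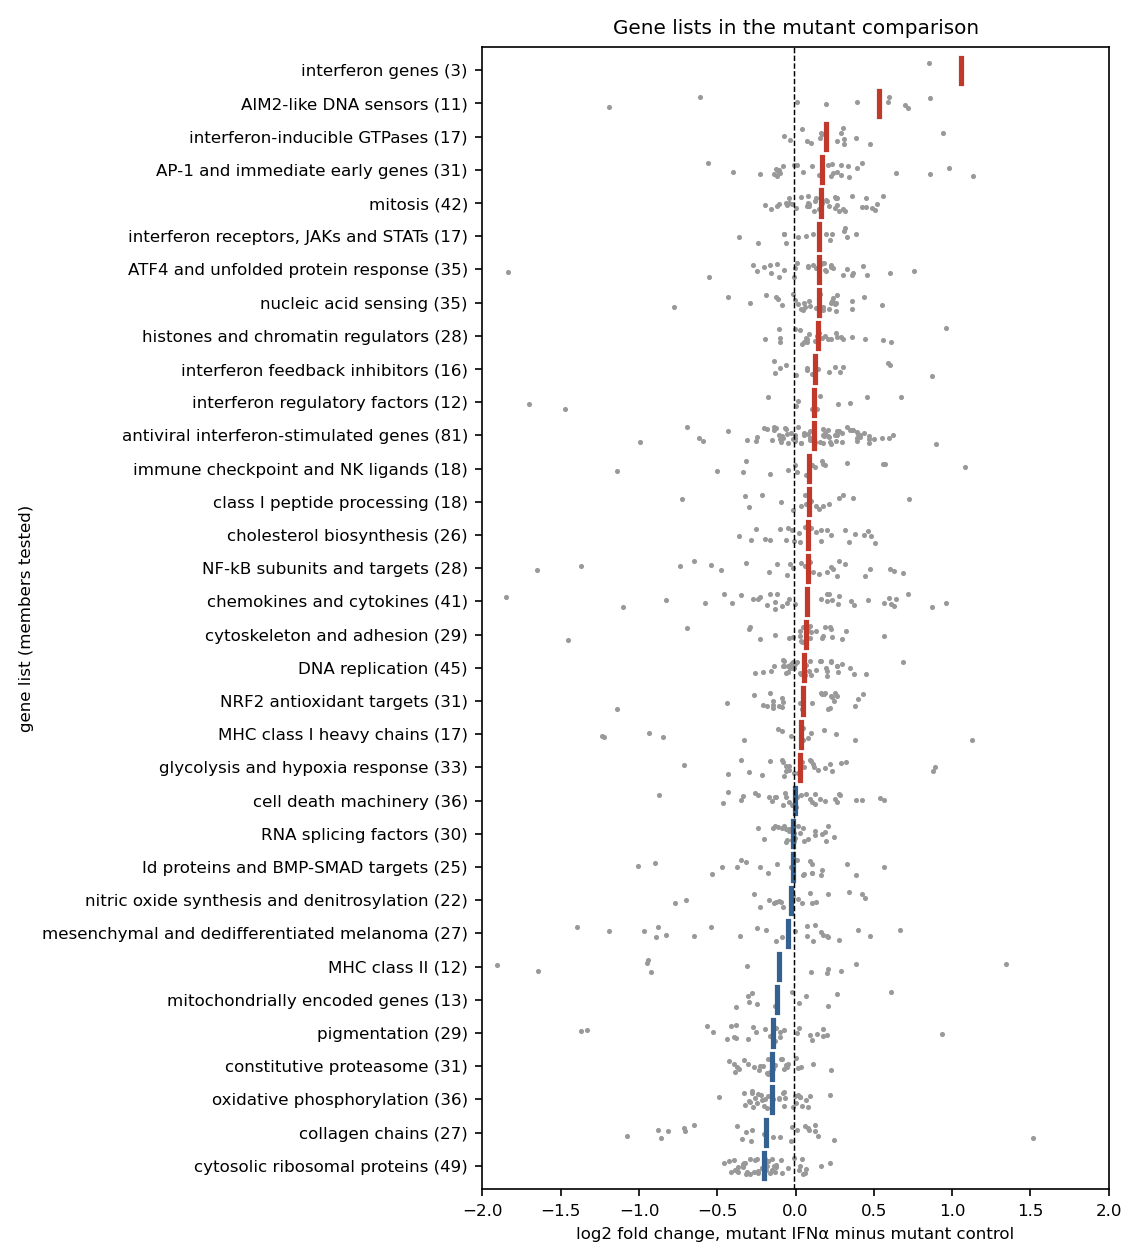
Log2 fold change of mutant IFNα minus mutant control for the tested members of 34 gene lists (grey points), with the list median as a coloured bar (red above 0, blue below) and the median of all genes tested as a dashed line. The lists run in order of their medians, led by the 3 interferon genes (1.06) and the AIM2-like genes (0.53) and closed by the ribosomal protein genes (−0.20), and 9 members beyond 2 on the log2 scale are not drawn.

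Genes of the integrated stress response, which slows translation under stress, had values in both directions. Ppp1r15a, the phosphatase subunit that restores translation, lay at 24.5, 29.7 and 25 FPKM with IFNα and 16.7, 18.3 and 16.3 FPKM in the controls. Every IFNα library was higher (0.60 ± 0.11, adjusted p = 0.152 in edgeR and 4.32e-05 in DESeq2). Ddit3, which encodes the death-promoting factor CHOP, lay at 119, 134 and 106 FPKM with IFNα and 192, 164 and 160.2 FPKM in the controls, with every IFNα library lower (−0.55 ± 0.13, adjusted p = 0.26). Chac1, which degrades glutathione, was at 0.45 ± 0.13, and Trib3, a pseudokinase that restrains ATF4, at 0.37 ± 0.11. Of 35 genes 7 were higher and 2 lower at an unadjusted p under 0.05 (20% and 5.71%), with a median of 0.15.

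Of 36 cell death genes 3 were higher and 3 lower at an unadjusted p under 0.05 (8.33% each). The higher ones included Bid, a link from death receptors to mitochondria, at 7.52, 8.45 and 10.3 FPKM with IFNα and 5.36, 6.09 and 6.34 FPKM in the controls (0.54 ± 0.13, adjusted p = 0.27). Bbc3, the p53 target PUMA, was at 0.56 ± 0.16 (adjusted p = 0.327).

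Genes of DNA replication and mitosis had more higher than lower members. E2f1, the factor that opens S phase, lay at 18, 17.3 and 27.5 FPKM with IFNα and 11.8, 13.6 and 13.2 FPKM in the controls. IFNα library 3 was far above the rest, and the value was 0.68 ± 0.16 with it (adjusted p = 0.271) and 0.43 without it. Rfc5, of the clamp loader, was at 0.35 ± 0.10, Cdc45, of the replicative helicase, at 0.30 ± 0.09, and the helicase subunit Mcm2 at 0.37 ± 0.13. Ube2c, which tags mitotic cyclins for destruction, lay at 35.9, 31.9 and 46.5 FPKM with IFNα and 28, 29.8 and 26.1 FPKM in the controls (0.42 ± 0.13, and 0.25 without IFNα library 3), and Mki67, a proliferation marker, at 1.03, 1.69 and 1.5 FPKM with IFNα and 0.841, 1.12 and 1.07 FPKM in the controls (0.45 ± 0.19, adjusted p = 0.455). Of 45 replication genes 7 were higher at an unadjusted p under 0.05 (15.6%), and of 42 mitosis genes 8 (19%), with 0 lower in either list and medians of 0.06 and 0.16.

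Transcript length went with the direction of change. Over 9353 genes the fold change and the exon length had a Spearman correlation of 0.201, a value across genes, which are not independent replicates, and it was 0.172, 0.258 and 0.108 for IFNα libraries 1 to 3. The lists with the lowest medians hold short transcripts, at a median of 2.02 kb for ribosomal proteins, 2.10 kb for oxidative phosphorylation and 2.81 kb for the proteasome, against 3.59 kb over all genes tested. The mitosis list had a median of 4.93 kb and the AIM2-like genes 3.56 kb. The part of length in the list values was not tested.

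Of 49 ribosomal protein genes 27 had all IFNα libraries below all controls in CPM (55.1%, against 9.74% of all genes), and 2 were lower at an unadjusted p under 0.05 (4.08%). Rpl14 lay at 627, 718 and 385 FPKM with IFNα and 786, 812 and 730.4 FPKM in the controls (−0.46 ± 0.18, adjusted p = 0.427), with IFNα library 3 the lowest and a value of −0.24 without it. Rpl37, of the large ribosomal subunit, was at −0.33 ± 0.14. The median of the list against the controls was −0.12, −0.17 and −0.33 in IFNα libraries 1, 2 and 3. Of 36 oxidative phosphorylation genes 11 lay below all controls (30.6%), with a median of −0.15, among them Uqcrq, of complex III, at 615, 627 and 380.2 FPKM with IFNα and 749, 732 and 757 FPKM in the controls (−0.49 ± 0.20, and −0.30 without IFNα library 3). Ribosomal protein genes have many pseudogene copies, so their counts are uncertain.

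Of 31 constitutive proteasome genes 6 were lower and 0 higher at an unadjusted p under 0.05 (19.4%), with a median of −0.15. Psmc5 and Psmc1, ATPases of the proteasome base, were at −0.39 ± 0.13 and −0.42 ± 0.14 (adjusted p = 0.368 and 0.374), and Psmc1 was at −0.25 without IFNα library 3. In both genes IFNα library 3 was the lowest, as Psmc5 shows at 320.5, 325 and 235 FPKM with IFNα and 419, 367 and 353 FPKM in the controls. The medians of these 3 lists were above 0 when IFNα library 3 was left out and a term for lung transcripts was added, at 0.16 for ribosomal proteins, 0.09 for oxidative phosphorylation and 0.17 for the proteasome. In that fit the term rests on the wild-type controls only, because lung transcripts and treatment run together in the remaining mutant libraries.

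Cholesterol synthesis genes included Srebf2, which encodes their main activator, at 17.7, 16 and 21.9 FPKM with IFNα and 11.5, 14.3 and 12.6 FPKM in the controls (0.51 ± 0.14, adjusted p = 0.304 in edgeR and 0.0369 in DESeq2), and Dhcr7, of the last step, at 0.38 ± 0.12. Of 26 genes 6 were higher and 1 lower at an unadjusted p under 0.05 (23.1% and 3.85%), with a median of 0.08. Insig2, which holds the SREBP complex in the endoplasmic reticulum, lay at 5.76, 5.81 and 4.59 FPKM with IFNα and 7.87, 7.59 and 7.51 FPKM in the controls, lower in every IFNα library (−0.53 ± 0.11, adjusted p = 0.189). Of 31 NRF2 antioxidant targets 4 were higher and 1 lower (12.9% and 3.23%), led by Blvrb, a biliverdin reductase, at 0.38 ± 0.12 (0.22 without IFNα library 3). Glycolysis genes held 0 higher and 1 lower at that level.

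In the nitric oxide list, Nos1 was near 0 in all libraries, at 0.0137, 0 and 0.0351 FPKM with IFNα and 0.00548, 0.0239 and 0.00642 FPKM in the controls. Of 22 genes tested 1 was higher and 1 lower at an unadjusted p under 0.05 (4.55% each, about the share of all genes). These were Slc7a1, an arginine importer (0.45 ± 0.15, adjusted p = 0.374), and Asl, argininosuccinate lyase (−0.23 ± 0.09, adjusted p = 0.434).

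Pigmentation genes are the differentiation products of melanocytes, and their list had more lower than higher members. Trpm1, a channel regulated by MITF, lay at 15.5, 18.9 and 14.7 FPKM with IFNα and 23.6, 20.9 and 20.9 FPKM in the controls (−0.44 ± 0.11, adjusted p = 0.291 in edgeR and 0.0242 in DESeq2). Mitf, the master regulator of melanocytes, lay at 3.26, 3.65 and 3 FPKM with IFNα and 4.75, 3.98 and 3.95 FPKM in the controls, with no overlap (−0.38 ± 0.13, adjusted p = 0.387). Bloc1s1, of melanosome biogenesis, was at −0.53 ± 0.17, Rab27a, of melanosome transport, at −0.39 ± 0.13, and Gpr143, a melanosome receptor, at −0.38 ± 0.13. Tyr, the enzyme that starts melanin synthesis, lay at 19.9, 19.8 and 15 FPKM with IFNα and 23.7, 19.9 and 20.5 FPKM in the controls (−0.25 ± 0.14, adjusted p = 0.563, and −0.14 without IFNα library 3). Of 29 genes 7 were lower and 0 higher at an unadjusted p under 0.05 (24.1%), with a median of −0.15 and a range of −0.23 to −0.10 over the alternatives. Collagen chains had a median of −0.19, which was −0.34 and −0.44 in IFNα libraries 1 and 2 and 0.16 in IFNα library 3, where the fibroblast and smooth muscle sum, which itself counts Col1a1, Col1a2 and Col3a1, was the highest of the 6.

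The remaining lists were read against 5.7% higher and 4.62% lower over all genes. Among 30 splicing factors 0 were past an unadjusted p of 0.05, among 29 cytoskeleton and adhesion genes 1 was higher and 2 lower, and among 28 histone and chromatin genes 3 were higher and 0 lower. Of 27 mesenchymal and dedifferentiation genes 0 were higher and 4 lower (14.8%), at a median of −0.05. The 13 mitochondrially encoded genes had medians of −0.07, −0.36 and 0.23 in IFNα libraries 1, 2 and 3, so their sign differed between replicates.

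Other genes with small p had no list of their own. Neurl3, an inflammation-induced ubiquitin ligase, lay at 20.1, 18.9 and 15.8 FPKM with IFNα and 8.05, 9.9 and 12.1 FPKM in the controls (0.84 ± 0.14, adjusted p = 0.0973 in edgeR and 2.91e-05 in DESeq2). Pold2, a subunit of DNA polymerase delta, was at 61.2 ± 5.16 FPKM with IFNα and 40 ± 1.18 FPKM in the controls (0.59 ± 0.11, adjusted p = 0.162). The remaining higher genes were Nmral1, a redox sensor (0.48), Tead2, a partner of YAP (0.57), Gtpbp2, a GTPase of ribosome rescue (0.51), and Pcdhgb2 (0.60), a protocadherin that shares exons with its cluster and whose count is uncertain. Their adjusted p lay between 0.145 and 0.189.

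On the lower side, the smallest p belonged to Dync1i1, a dynein intermediate chain, at 6.5, 7.32 and 6.05 FPKM with IFNα and 11.3, 11.7 and 9 FPKM in the controls (−0.71 ± 0.14, adjusted p = 0.162). Tmsb4x, the actin-binding thymosin beta 4, lay at 10.3, 9.75 and 15.3 FPKM with IFNα and 22.8, 21.2 and 18.2 FPKM in the controls (−0.84 ± 0.21, adjusted p = 0.29). IFNα library 3 lay closest to the controls, and the value was −1.08 without it. Vamp5, a vesicle membrane protein, was at −0.70, Eps8, an actin regulator, at −0.55, Tnnt2, cardiac troponin T, at −0.65, and Vdac2, a mitochondrial channel, at −0.43. Ptges3l (−0.66), Narf, which binds prelamin A (−0.70), and Ndufv3, of complex I (−0.44), completed the 12 lower genes with Insig2, Ddit3 and Id3. The adjusted p of these lower genes was at least 0.162.

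Of the 12 higher genes chosen by smallest p, 8 had a promoter entry and 3 of these held an ISRE core (Mndal, Ppp1r15a and Pold2), 2 the NF-κB form (Ifnb1 and Neurl3) and 1 the gamma-activated site (Irf1). Of the 12 lower genes 9 had an entry and 0 held any of the 3. Among all genes with an entry, 3.46% held the ISRE core, 5.31% the NF-κB form and 8.13% the gamma-activated site in at least 1 promoter.

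The response of the mutant line was then set against that of the wild-type line in the same fit. By the test of the difference itself 0 of 17590 genes passed in edgeR (0%), while 909 lay under an unadjusted p of 0.05 (5.17%). The other tools called 14 genes (DESeq2) and 0 genes (limma). H2-K2 had a log2 fold change of 1.13 ± 0.14 in the mutant and 0.13 ± 0.14 in the wild type, a difference of 0.999 ± 0.204 (edgeR unadjusted p = 0.00023, adjusted p = 0.916). Id1 had −0.32 ± 0.12 in the mutant and −1.17 ± 0.12 in the wild type, a difference of 0.86 ± 0.17 (adjusted p = 0.916). DESeq2 called both differences, each at an adjusted p = 0.0158. Of its other calls, the largest in size was Krtdap at −27.8 and the smallest Plekhd1 at 5.12 on the log2 scale. The DESeq2 calls of a difference therefore include values too large to be read as fold changes. Id3 had −0.47 ± 0.12 in the mutant and −1.01 ± 0.12 in the wild type (difference adjusted p = 0.916), and in the wild type both Id genes passed (adjusted p = 0.00316 for Id1 and 0.00643 for Id3).

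For Ifnb1, Irf1 and Cxcl10 the lines gave close values. Ifnb1 had 0.85 ± 0.16 in the mutant and 0.74 ± 0.16 in the wild type, Irf1 had 0.68 ± 0.10 in the mutant and 0.71 ± 0.10 in the wild type, and Cxcl10 had 0.57 ± 0.12 in the mutant and 0.48 ± 0.12 in the wild type. Their differences were 0.11 ± 0.23, −0.03 ± 0.14 and 0.09 ± 0.17, each within its own SE, which does not show that the lines respond alike. Ifna4 had 2.61 ± 0.40 in the mutant and 1.497 ± 0.369 in the wild type (difference 1.11 ± 0.53, adjusted p = 0.916). Its mean level was lower in the mutant in both conditions. It was 4.28 FPKM with IFNα and 0.68 FPKM in the controls there, against 7.93 and 2.76 FPKM in the wild type. Ifnz, near the limit of detection, had 1.06 ± 0.67 in the mutant and −0.08 ± 0.66 in the wild type (difference adjusted p = 0.918).

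Other genes had a value farther from 0 in the mutant, but no difference that passed. Mndal had 0.72 ± 0.12 in the mutant and 0.27 ± 0.12 in the wild type, and Ifi204 had 0.70 ± 0.16 in the mutant and 0.14 ± 0.16 in the wild type. Tapbpl had 0.72 ± 0.18 in the mutant and −0.08 ± 0.18 in the wild type, and Tmsb4x had −0.84 ± 0.21 in the mutant and 0.39 ± 0.21 in the wild type. The adjusted p of each of these differences was 0.916. In the mutant 1 of 3 IFNα libraries and all controls held lung transcripts, whereas in the wild type all IFNα libraries and 1 of 3 controls did. The difference between the lines therefore runs with the lung transcripts, and their part in it was not tested.

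**Figure D5:**
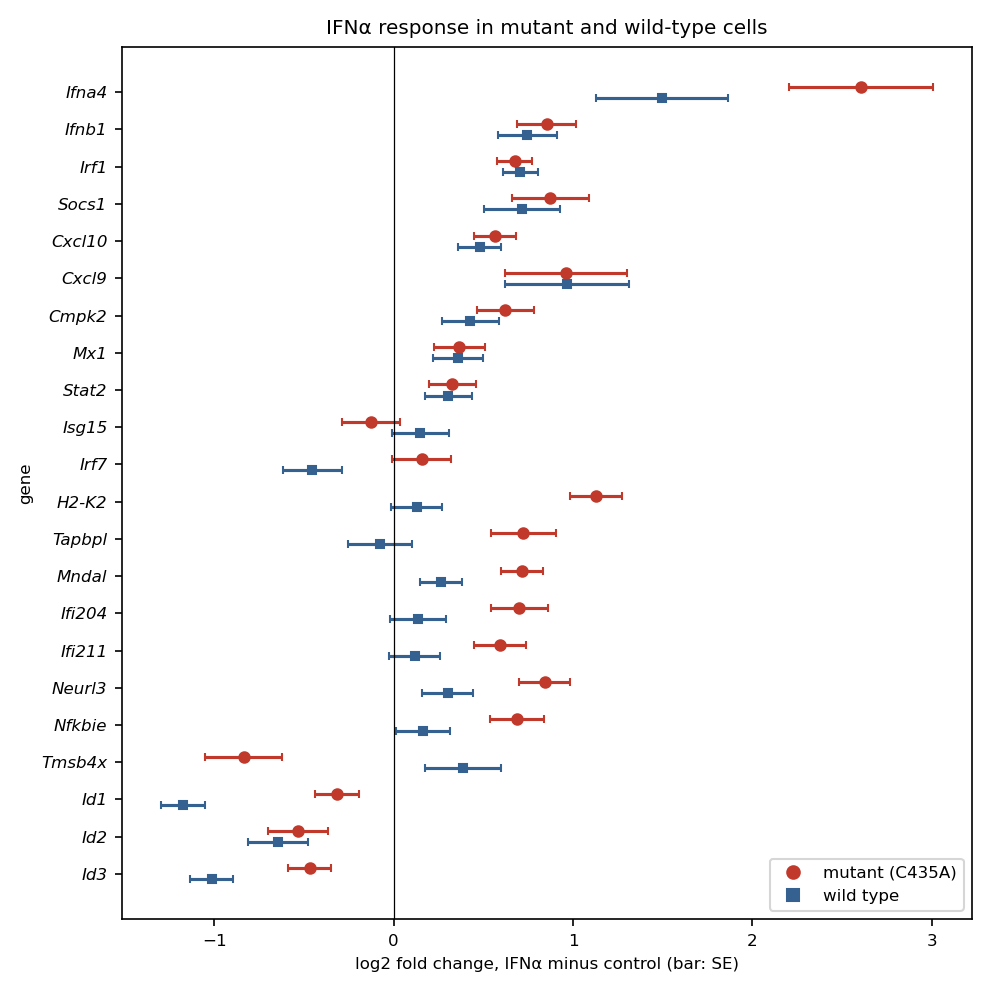
Log2 fold change of IFNα minus control with its SE for 22 genes in the mutant line (red circles) and the wild-type line (blue squares), 3 libraries per group. The lines give close values for Ifnb1, Irf1, Socs1 and Cxcl9, H2-K2 lies at 1.13 in the mutant and 0.13 in the wild type, and Id1 lies at −0.32 in the mutant and −1.17 in the wild type.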

How the data were processed

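RNA of 12 B16F10 libraries was sequenced, and the sample titles gave each library its group and number. One deposited table lists 27503 genes, each with a count and an FPKM in every library. The counts in the deposited table are raw whole numbers per gene. Multiples of 4 made up 33.6% of counts between 1 and 30, against 23.3% of the whole numbers in that range. The FPKM columns, per the file headers, hold levels that the authors corrected for transcript length and sequencing depth. Tools named without roles, per the submitters' processing notes, are StringTie 1.3.4d, HISAT2 2.0.4, cutadapt 1.9, UMI-tools, edgeR and DESeq2, with the build GRCm38. How reads were counted, and whether by strand, is not given, so reads of genes overlapping on opposite strands may be shared. Of the identifiers 95.1% were in a GRCm38 annotation, but only 2.2% of these had the same start, so positions are as deposited and their build is not known.

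Changes were tested with edgeR 4.0.16 (R 4.3.3) on the counts: the package's filter for low counts, TMM factors, 4 group means over all 12 libraries, two-sided quasi-likelihood tests and Benjamini-Hochberg adjustment over all genes, with a threshold of 0.05. The shared biological coefficient of variation was 28.9%. DESeq2 1.42.0 and limma 3.58.1 on log2(FPKM + 1) were alternatives. Named genes were those past the threshold, the 12 higher and 12 lower genes with the smallest p, at least 5 FPKM and no overlap (predicted genes and pseudogenes left out), 35 genes reported whatever their result, and up to 4 members per list with the smallest p, of which those that carry a result are printed. One of these genes is not reported here. The members and lists were chosen with earlier results of these data known, so lists were given no test. Promoters were matched by symbol; H2-K2, Batf2 and Relb were not printed. Scripts were tested on simulated data with known fold changes. Alternatives are given in the closing section.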

Additional observations from a re-analysis of the deposited data

How the results depend on the processing

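The number of genes changed by IFNα in the mutant line was 1, and it was 1 with DESeq2 size factors in edgeR and with no filter on low counts. It was 175 with DESeq2, 2 with library totals as scaling (H2-K2 and Ifna4), 2 over genes with a mean of at least 5 FPKM (H2-K2 and Irf1), 3 with robust estimation (H2-K2, Irf1 and Ifna4), 3 with limma at a pseudocount of 1 or of 0.1, and 0 in a fit of the 6 mutant libraries only. With a term for lung transcripts it was 1, Ifna4 in place of H2-K2. It was 0 with that term and IFNα library 3 left out, an alternative chosen after the data were seen. In the lung-bearing mutant libraries only, IFNα library 3 alone against the 3 controls, 830 genes were called, 360 higher and 470 lower, where the lone library is assumed to vary like the other groups. Leaving out 1 library at a time gave 0 to 2 calls, and the 2 without IFNα library 3 were predicted genes. The difference between the lines gave 0 calls in edgeR and limma under every alternative run and 14 with DESeq2.

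Replicate numbers did not pair the mutant libraries: same-numbered IFNα and control libraries had correlations of their deviations of 0.295, −0.337 and 0.214. With the number as a replicate block 0 genes passed, and H2-K2 lay at 1.13 (adjusted p = 0.231).

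Of 2736 values of 111 genes, 2626 kept their side of the threshold without a reversal, 11 were weaker, 89 stronger and 10 reversed. Among the 2626, 45 changed sign where neither p was under 0.05 unadjusted. In the lung-bearing libraries only, Psmb9 was at −0.52. With the lung term and IFNα library 3 left out, Stat2 was at −0.0211, Ccl4 −0.10, Rela −0.0720, Rpl37 0.0478, Bloc1s1 0.12, Rab27a 0.0598, Mki67 −0.11, H2-Eb1 0.28 and H2-Ab1 0.52. Some interferon targets with small values had larger values under that alternative without passing. Ifit1 was at 0.78 against 0.12 with all libraries and no term, Rsad2 at 0.68 against 0.17 and Ifit3 at 0.57 against 0.12. Isg15 was at 0.22 against −0.13, Mx1 at 0.66 against 0.37 and Tgtp2 at 0.88 against 0.38. Targets with larger values did not share this rise. Their lowest values over all alternatives were 0.16 for Cmpk2 (0.62 with all libraries and no term) and 0.27 for Batf2 (0.98). For Cxcl10 the lowest was 0.30 (0.57), and for Tor3a 0.30 (0.50). With the lung term and IFNα library 3 left out, mutant IFNα libraries 1 and 2 lacked lung transcripts and all mutant controls held them. The lung term then rests on wild-type control 1 against wild-type controls 2 and 3. It therefore cannot separate IFNα from lung transcripts in the mutant line. The causes were not tested. The median of all genes lay between −0.05 and 0.03 under every alternative.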
